A study of Homo sapiens with 2 samples.

Results

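The genes described here are the protein-coding ZNF genes that lie outside chromosome 19, measured in the human lung cancer line H1299 with and without knockdown of PHF12. They were chosen as genes whose symbol is ZNF followed by a number and at most 1 letter, whose position is not on chromosome 19, and whose counts summed over both libraries reached 50. Of 38637 genes listed, 263 had such a symbol outside chromosome 19, and 234 of these 263 reached the summed count. The genes were picked because ZNF genes leaned higher in the knockdown library, so the direction of the set is a description of how it was chosen and no test was made of it. The median of the 234 log2 ratios of knockdown over control was 0.06, against -0.01 over the 12692 protein-coding genes with the same summed count. The 119 genes whose protein carries a KRAB domain had a median of 0.15, and the 115 without one had a median of 0.00. The highest member, ZNF721, stood at 1.99 times its control level, and the lowest, ZNF438, at 0.608 times.

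ZNF genes encode zinc finger proteins, most of them of the C2H2 type, in which a pair of cysteines and a pair of histidines hold a zinc ion and successive fingers read bases along DNA. The largest family among them carries a KRAB domain at the amino-terminal end. KRAB recruits TRIM28 (KAP1), which brings the H3K9 methyltransferase SETDB1 and HP1 proteins, and many KRAB zinc finger proteins silence transposable elements this way. Many of these genes arose by tandem duplication and sit in clusters, the largest on chromosome 19, with others on chromosomes such as 4, 7, 10, 12 and 16. PHF12 (Pf1) is a PHD finger protein that works in a corepressor complex with Sin3 and histone deacetylases.

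RNA-seq of poly(A)-selected RNA was given for 2 libraries, 1 per group. The PHF12 knockdown library came from H1299 cells labelled PHF12 KD, with a title carrying si, and the control library from H1299 cells labelled with no treatment, with a title ending in nc. Both carry the genotype label wild type; the sources used here do not give the knockdown reagent or whether control cells received an oligonucleotide. H1299 is a non-small cell lung cancer line grown from a lymph node metastasis. Since each group is a single library, no difference could be checked between replicates and every ratio compares these libraries rather than the conditions. The 95% intervals given beside ratios account for counting error alone.

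The knockdown library held 26084594 counts and the control library 24740581. PHF12 had 756 counts (8.71 TPM) in the knockdown library and 947 counts (11.4 TPM) in the control library, a ratio of 0.753 (95% interval 0.683 to 0.829). That ratio did not reach 1.5-fold, and 22.7% of all protein-coding genes had an interval below 1. The epithelial and mesenchymal filament genes KRT8, KRT18 and VIM were among the abundant transcripts, between 888 and 4876 TPM in the knockdown library and between 1147 and 5349 TPM in the control library. Their ratios were 0.760, 0.796 and 0.896, so the ratio of PHF12 was close to that of KRT8. PTPRC and CD3E of leukocytes and SFTPC and SCGB1A1 of lung epithelium had 0 counts in both, and the other 5 markers of other cell types (EPCAM, PECAM1, CDH5, COL1A1 and COL3A1) had at most 63 counts in the knockdown library and 50 in the control library.

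The promoters of 6 members and, for contrast, those of ZNF664 and ZNF438 are shown first, because members of the largest cluster in which every gene had a ratio above 1 share promoter sequence. The 6 also have the highest ratios of the 14 members whose promoters hold the words marked below, so they were not chosen apart from the ratios. ZNF736 of the same cluster and ZNF595 of the ZNF141 cluster hold these words too and are not shown. Each sequence is the RefSeq window (GRCh38.p14) of 300 bases, 250 before and 50 after the annotated start, read 5′ to 3′ on the strand of the gene. Capitals mark 2 words searched on both strands: CCAAT, or ATTGG on the other strand, which is the box bound by NF-Y, and CCGGAAG, or CTTCCGG on the other strand, a core bound by ETS factors. The words do not overlap each other, and a match describes the letters only and is not a binding site by itself.
ZNF138, chr7:64794178-64794477, plus strand: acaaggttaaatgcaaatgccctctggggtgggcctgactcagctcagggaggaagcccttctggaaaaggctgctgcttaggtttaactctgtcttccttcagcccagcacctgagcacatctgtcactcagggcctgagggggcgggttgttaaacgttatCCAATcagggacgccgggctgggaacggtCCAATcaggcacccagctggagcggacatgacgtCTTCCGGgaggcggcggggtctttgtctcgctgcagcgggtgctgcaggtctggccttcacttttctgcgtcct
ZNF107, chr7:64665883-64666182, plus strand: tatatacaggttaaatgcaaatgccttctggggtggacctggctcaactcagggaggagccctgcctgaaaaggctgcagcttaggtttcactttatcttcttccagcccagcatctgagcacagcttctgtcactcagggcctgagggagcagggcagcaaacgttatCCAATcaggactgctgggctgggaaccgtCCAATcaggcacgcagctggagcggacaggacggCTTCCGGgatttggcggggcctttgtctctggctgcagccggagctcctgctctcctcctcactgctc
ZNF680, chr7:64563022-64563321, minus strand: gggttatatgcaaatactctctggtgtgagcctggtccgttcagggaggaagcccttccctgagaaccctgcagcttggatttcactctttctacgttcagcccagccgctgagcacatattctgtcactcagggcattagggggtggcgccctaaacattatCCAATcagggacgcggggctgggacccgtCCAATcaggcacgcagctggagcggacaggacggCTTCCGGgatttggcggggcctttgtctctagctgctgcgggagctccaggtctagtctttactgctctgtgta
ZNF92, chr7:65373605-65373904, plus strand: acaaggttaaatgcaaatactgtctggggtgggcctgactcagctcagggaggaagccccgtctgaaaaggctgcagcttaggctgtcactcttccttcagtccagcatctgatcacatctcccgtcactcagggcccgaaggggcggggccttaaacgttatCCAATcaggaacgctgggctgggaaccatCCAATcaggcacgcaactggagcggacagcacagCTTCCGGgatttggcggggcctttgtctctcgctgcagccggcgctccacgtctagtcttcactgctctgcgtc
ZNF141, chr4:337564-337863, plus strand: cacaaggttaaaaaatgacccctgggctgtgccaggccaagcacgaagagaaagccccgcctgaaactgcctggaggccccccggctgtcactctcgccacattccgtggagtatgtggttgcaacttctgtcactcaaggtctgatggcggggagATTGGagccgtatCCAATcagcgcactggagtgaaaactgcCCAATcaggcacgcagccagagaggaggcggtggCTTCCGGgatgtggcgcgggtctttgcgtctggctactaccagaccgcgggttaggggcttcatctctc
ZNF267, chr16:31873557-31873856, plus strand: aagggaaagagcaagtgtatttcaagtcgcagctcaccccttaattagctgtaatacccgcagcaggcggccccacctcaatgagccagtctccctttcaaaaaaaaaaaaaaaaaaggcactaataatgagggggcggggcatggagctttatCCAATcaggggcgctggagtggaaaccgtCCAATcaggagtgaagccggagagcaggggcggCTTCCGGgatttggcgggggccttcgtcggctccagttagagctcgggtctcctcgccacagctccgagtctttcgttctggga
ZNF664, chr12:123972965-123973264, plus strand: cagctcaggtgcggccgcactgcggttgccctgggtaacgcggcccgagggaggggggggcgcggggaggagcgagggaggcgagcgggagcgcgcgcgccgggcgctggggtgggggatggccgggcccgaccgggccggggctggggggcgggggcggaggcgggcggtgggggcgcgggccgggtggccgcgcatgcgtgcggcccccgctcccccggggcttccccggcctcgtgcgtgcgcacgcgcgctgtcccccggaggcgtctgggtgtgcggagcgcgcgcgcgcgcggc
ZNF438, chr10:31031816-31032115, minus strand: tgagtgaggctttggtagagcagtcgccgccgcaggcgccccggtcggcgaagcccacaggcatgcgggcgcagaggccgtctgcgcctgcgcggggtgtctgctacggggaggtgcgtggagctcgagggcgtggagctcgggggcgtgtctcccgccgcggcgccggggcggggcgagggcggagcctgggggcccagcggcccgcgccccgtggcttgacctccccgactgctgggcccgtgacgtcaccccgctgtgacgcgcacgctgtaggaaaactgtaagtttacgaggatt
The first 4 lie in 1 cluster on chromosome 7 and were 78.6% to 83.3% identical to each other in pairwise alignment. ZNF141 on chromosome 4 and ZNF267 on chromosome 16 show a pair of CCAAT boxes followed by the ETS word in the same order before the start, and identity over all 6 ranged from 54.5% to 83.3%. ZNF664 and ZNF438 hold neither word and are rich in CpG, with 51 and 39 CpG in the window, against 8 to 16 in the 6 others. Identity of the 6 to these 2 was 43.8% to 48.3%, and these 2 were 54.7% identical to each other. The 54.5% of ZNF141 and ZNF267 was thus no higher than the identity of 2 promoters that hold neither word.

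Across the 234 genes, 142 had a ratio above 1 (60.7%), where 47.3% of all protein-coding genes measured did. A ratio of at least 1.5 was reached by 9 genes (3.85%, against 1.52% of all protein-coding genes), and 3 were lower by at least 1.5-fold (1.28%, against 2.19%). None of the 234 passed 2-fold in either direction, where 0.213% of all genes were at least 2-fold higher and 0.331% at least 2-fold lower. Of the 9 higher genes, 4 were among the 141 members that overlap no other listed gene on either strand. The 95% counting interval of the ratio lay above 1 for 60 genes (25.6%, against 21.4% of all) and below 1 for 29 (12.4%, against 22.7%). Since the set was chosen on this contrast, nothing is read from these shares. In bulk RNA, fewer cells that express a gene and less RNA per cell cannot be told apart.

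**Figure D1:**
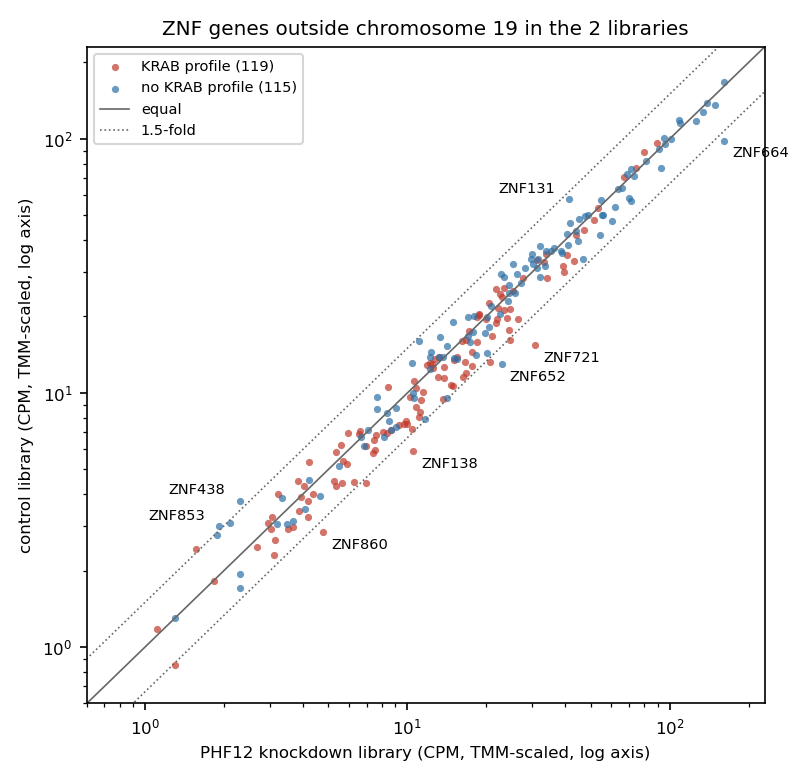
Counts per 1000000 (CPM), scaled by trimmed mean of M-values, of each of the 234 ZNF genes in the knockdown library (horizontal) and the control library (vertical), on log axes. The solid line marks equal values and the dotted lines 1.5-fold; 9 genes lie beyond the line on the knockdown side and 3 beyond the line on the control side.

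Summed over all 234 genes, the knockdown library held 162720 counts and the control library 146889, a ratio of 1.04 (95% interval 1.04 to 1.05) and a log2 ratio of 0.063. Over the 141 members with no overlapping gene that log2 ratio was 0.0389. The 119 genes with a KRAB domain summed to 53145 counts in the knockdown library and 46264 in the control library, a ratio of 1.08 (1.07 to 1.097). The 115 without one summed to 109575 and 100625 counts, a ratio of 1.03 (1.02 to 1.04). The shift was thus small in amount: the set took 0.624% of all counts in the knockdown library and 0.594% in the control library.

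ZNF721, a KRAB gene with 23 fingers on the minus strand of chromosome 4 (439988 to 499156, hg38), had 803 counts (18.5 TPM) in the knockdown library and 381 counts (9.17 TPM) in the control library. Its ratio of 1.99 (1.76 to 2.25) was the highest of the set; its span overlaps the pseudogene ABCA11P on the same strand, so part of its counts is uncertain. ZNF138, a KRAB gene of the chromosome 7 cluster, had 274 counts in the knockdown library and 146 in the control library, a ratio of 1.77 (1.44 to 2.18). ZNF107, its neighbour in the same cluster, had 643 and 397 counts in the knockdown and control libraries, a ratio of 1.53 (1.35 to 1.74). All 3 belong to clusters in which every measured member was above 1.

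The other genes at least 1.5-fold higher were spread over chromosomes. ZNF652, a repressor known to bind the ETO-family corepressor CBFA2T3, had 598 counts in the knockdown library and 321 in the control library (ratio 1.76, 1.53 to 2.02), and overlaps ZNF652-AS1 on the opposite strand. ZNF664, which has 9 fingers and no KRAB domain, had 4203 counts (105 TPM) in the knockdown library and 2431 counts (63.4 TPM) in the control library. Its ratio of 1.63 (1.55 to 1.71) had the narrowest interval of the 9 genes, though its counts share a span with the readthrough gene ZNF664-RFLNA. The KRAB genes ZNF860 (125 and 70 counts in the knockdown and control libraries), ZNF483 (182 and 109, with a SCAN domain as well) and ZNF184 (542 and 327) had ratios of 1.68 (1.247 to 2.29), 1.57 (1.24 to 2.02) and 1.56 (1.36 to 1.798). ZNF483 overlaps PTGR1 on the opposite strand. ZNF214, with 34 counts in the knockdown library and 21 in the control library, stood at 1.53, and its interval of 0.861 to 2.77 includes 1.

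The genes at the low end had few counts and mostly no KRAB domain. ZNF438, known as a transcriptional repressor, had 60 counts in the knockdown library and 93 in the control library, a ratio of 0.608 (0.432 to 0.851). ZNF853 had 50 and 74 counts in the knockdown and control libraries, a ratio of 0.637 (0.436 to 0.925). ZNF862, in which the KRAB search found a domain and no C2H2 finger was found, had 41 and 60 counts, a ratio of 0.644 (0.422 to 0.975). None of the 3 reached a summed count of 200, so the lowest ratios lie where counting error is widest.

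Among better counted genes the lowest was ZNF319, with 291 counts in the knockdown library and 394 in the control library (ratio 0.696, 0.596 to 0.812); it overlaps USB1 on the opposite strand. ZNF131, a BTB-domain factor that binds Kaiso, had 1080 counts (24.2 TPM) in the knockdown library and 1425 counts (33.2 TPM) in the control library, a ratio of 0.715 (0.660 to 0.774). Both lack a KRAB domain.

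Few genes lay near the count minimum. Just inside it, ZNF214 had a summed count of 55, ZNF334 of 58 (29 counts in each library) and ZNF711 of 66 (34 in the knockdown library and 32 in the control library). Just outside it were ZNF365 with 24, ZNF157 with 20 and ZNF843 with 15, and their ratios carried intervals as wide as 0.649 to 5.18. Of the 29 genes left out, 17 had 0 counts in both libraries and 12 had between 1 and 24. The gap between 24 and 55 was empty.

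The 234 proteins differed in domain content. A profile built from KRAB boxes was searched against translated GENCODE coding sequences, and the number of C2H2 fingers ran from 0 to 33 with a median of 9. Genes with a KRAB domain had a median log2 ratio of 0.15 and 82 of 119 above 1 (68.9%). Of these 119, 7 were at least 1.5-fold higher (5.88%) and 1 lower (0.840%). Their intervals lay above 1 for 39 and below 1 for 5. Genes without one had a median of 0.00 and 60 of 115 above 1 (52.2%). Of these 115, 2 were at least 1.5-fold higher (1.74%) and 2 lower (1.74%), with intervals above 1 for 21 and below 1 for 24. Over all protein-coding genes, 47.3% were above 1, 1.52% at least 1.5-fold higher and 2.19% lower. Their intervals lay above 1 for 21.4% and below 1 for 22.7%, so the genes without KRAB lay near the shares of all genes. The split uses the contrast on which the set was chosen and carries no test.

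On chromosome 19 the same split had the same direction. The 231 ZNF genes there had a median log2 ratio of 0.13, with 28 at least 1.5-fold higher (12.1%) and 3 lower; their 200 KRAB genes had a median of 0.19 and their 30 genes without KRAB one of -0.09, with 1 gene not classified. The chromosome 19 genes thus had a larger share at least 1.5-fold higher than the 3.85% outside it. At least 2-fold higher were 2 of the 231 (0.866%) and none outside, where 0.213% of all protein-coding genes were. Nothing is read from counts this small. No test of the difference was possible with 1 library per group.

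**Figure D2:**
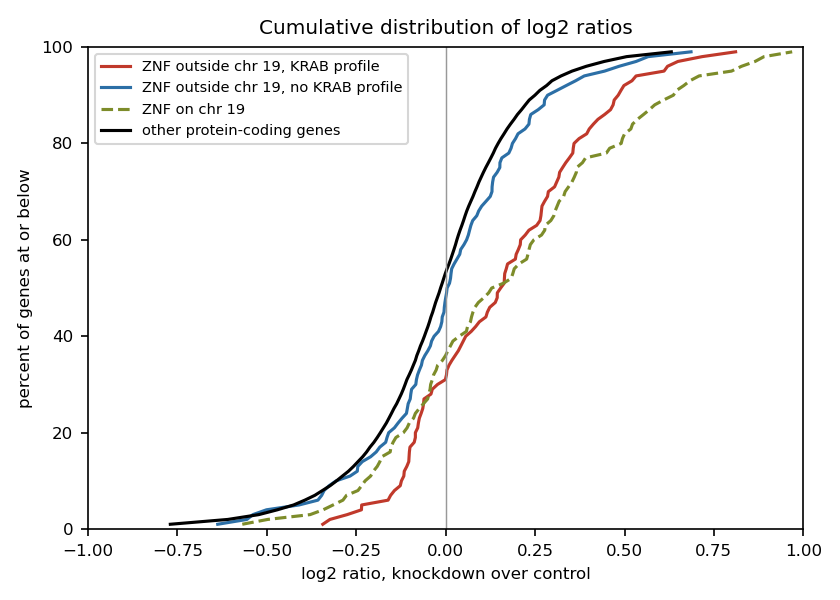
Percent of genes (vertical) at or below each log2 ratio of knockdown over control (horizontal) for ZNF genes outside chromosome 19 with and without a KRAB profile, ZNF genes on chromosome 19 and all other protein-coding genes. The curve of KRAB genes outside chromosome 19 lies to the right of the others' curve, with medians of 0.15 and -0.01, while the curve of genes without KRAB (median 0.00) lies near that of other protein-coding genes.

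The KRAB genes were measured with fewer counts, so both kinds were set side by side at like depth. From 200 to under 500 summed counts, the 34 KRAB genes had a median log2 ratio of 0.22 and the 14 others 0.07, where all protein-coding genes of that depth had -0.04. From 500 to under 1000 the medians were 0.16 for 34 KRAB genes, 0.03 for 26 others and -0.05 for all. From 1000 to under 2000 they were 0.15 for 26 KRAB genes, -0.06 for 26 others and -0.02 for all. At 2000 and above, the 8 KRAB genes had a median of -0.02 and the 37 others 0.01, so the KRAB genes with the most counts did not lean higher. KRAB transcripts are also poorer in GC, with a median of 42.9% against 47.9% in the other members and 49.2% in all protein-coding genes; with a smooth trend of the log2 ratio on transcript GC content and length removed, the medians were 0.14 for KRAB genes and 0.02 for the others.

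A SCAN domain, a dimerisation domain found in some zinc finger proteins, was found in 21 members, with a median log2 ratio of 0.18 and 15 of 21 above 1. The 7 with SCAN and no KRAB had a median of 0.24, among them ZNF232 at 1.48 (1.26 to 1.75) and ZNF165 at 1.41 (1.23 to 1.62). The 108 with neither domain had a median of 0.00. At least 8 fingers were found in 88 KRAB genes, with a median of 0.16, and in 50 others, with a median of 0.00. Across all 234 members, Spearman's rho of the log2 ratio with finger number was 0.205; genes of a cluster share sequence and are not independent.

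By chromosome, members were found on 20 chromosomes, 18 of which held at least 5. The median log2 ratio of the ZNF genes was above 0 on 14 of these 18 and above that of the other protein-coding genes of the same chromosome on 15 of 18. The medians of the other genes ranged narrowly, from -0.04 to 0.01, while those of the ZNF genes ranged from -0.08 on chromosome 10 to 0.35 on chromosome 17. On the 13 chromosomes with at least 3 members of each kind, the KRAB genes had the higher median on 9. Chromosomes 5, 8, 17 and 20 went the other way, on chromosome 17 with medians of 0.27 for KRAB genes and 0.56 for the others. Without members that overlap a gene on the opposite strand, the median of chromosome 17 was 0.20 and that of chromosome 3 was 0.08. Without members that overlap a gene on either strand, that of chromosome 4 was 0.17 and that of chromosome 12 was 0.14, and with at least 200 summed counts that of chromosome 16 was 0.09. The medians of chromosomes 6, 7, 18, 20 and X lay close enough to 0 that their sign changed under at least 1 other way of processing.

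The highest and lowest genes named for a chromosome are those with at least 200 summed counts. Chromosome 17 had 9 members, 8 of them above 1. Its highest, ZNF652, and its lowest, ZNF207, a spindle protein with 4225 counts in the knockdown library and 4128 in the control library, stood at 1.76 and 0.965. Chromosome 4 followed with a median of 0.28 over 8 genes, from ZNF721 at 1.99 down to ZNF518B, a partner of the G9a methyltransferase, at 0.896 (0.806 to 0.996). On chromosome 3 (14 genes, median 0.23) the ends were ZNF589 at 1.45 and ZNF639 at 0.841. On chromosome 12 (12 genes, median 0.23) they were ZNF664 and ZNF10, a KRAB repressor long used as a source of the domain, at 1.63 and 0.850. On chromosome 9 (12 genes, median 0.22) they were ZNF483 at 1.57 and ZNF782 at 0.932. Each of these 5 chromosomes also had a gene below 1.

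Chromosome 16, with 29 genes, had a median of 0.16 and 20 genes above 1, from ZNF267 at 1.44 to ZNF319 at 0.696. On chromosome 11 all 6 genes were above 1, with a median of 0.16, and ZNF195 at 1.32 and ZNF408 at 1.01 were its ends. Chromosome 2 had a median of 0.10, with ZNF2 at 1.26 and ZNF142 at 0.956. Chromosomes 20, 15, 6 and 8 had medians of 0.07, 0.06, 0.02 and 0.01. Their highest genes were ZNF512B at 1.21, ZNF106 at 1.09, ZNF184 at 1.56 and ZNF572 at 1.18, and their lowest ZNF343 at 0.940, ZNF280D at 0.928, ZNF391 at 0.802 and ZNF696 at 0.874. On these 4, genes lay on both sides of 1.

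Of the 18 chromosomes with at least 5 members, 4 had medians below 0; chromosomes 14 (3 members) and 22 (4 members) also did, at -0.11 and -0.04. Chromosome 10 had a median of -0.08 with 5 of 15 genes above 1, between ZNF33A at 1.42 and ZNF511 at 0.769. Chromosome 1 had -0.06 with 8 of 18 above 1, between ZNF281 at 1.30 and ZNF593 at 0.783. Chromosome 5 had -0.05 with 4 of 10 above 1, between ZNF622 at 1.247 and ZNF131 at 0.715. Chromosome 18 had -0.03 with 3 of 8 above 1, between ZNF397 at 1.13 and ZNF516 at 0.787. The X chromosome had a median of 0.00 over 11 genes, between ZNF41 at 1.37 and ZNF275 at 0.843, and chromosome 7 one of 0.04 over 29 genes, between ZNF138 at 1.77 and ZNF800 at 0.844.

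**Figure D3:**
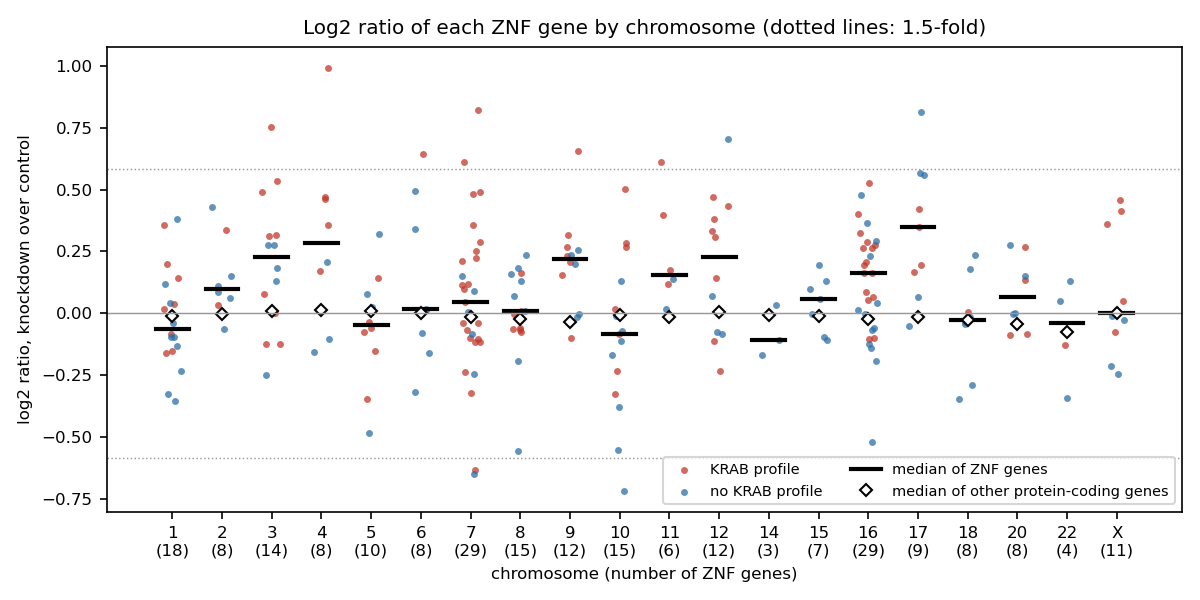
Log2 ratio of knockdown over control (vertical) of each ZNF gene, by chromosome (horizontal, number of genes in brackets), with the median of the ZNF genes as a bar and the median of the other protein-coding genes of the chromosome as a diamond. The diamonds stay near 0 while the bars of chromosomes 3, 4, 9, 12 and 17 lie above 0.2.

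Values also differed between gene clusters of 1 chromosome. Members whose starts followed each other within 1 Mb formed 15 clusters of at least 4 genes, with 93 members in all. The 5 genes at the tip of chromosome 4, from ZNF595 to ZNF721 (53276 to 499156), had a median log2 ratio of 0.46 and were all above 1. The 8 genes on chromosome 7 between 64043194 and 65401136, from ZNF727 to ZNF92, had a median of 0.42 and were all above 1 too, between ZNF117 at 1.11 and ZNF138 at 1.77. They summed to 2761 counts in the knockdown library and 1902 in the control library. In the same cluster ZNF680 stood at 1.40 (1.20 to 1.65), ZNF92 at 1.40 (1.20 to 1.62), ZNF273 at 1.28 (1.03 to 1.60) and ZNF736 at 1.22 (1.06 to 1.41). ZNF117, the 1 gene of the cluster in which no KRAB domain was found, shares its span with ERV3-1 on the same strand, and reads of overlapping or closely related genes may be assigned with error.

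A second cluster on chromosome 7 leaned the other way. The 11 genes between 149069641 and 150398630, from ZNF786 to ZNF775, had a median of -0.10 with 3 of 11 above 1, although 9 of the 11 carry a KRAB domain. They summed to 6176 counts in the knockdown library and 6063 in the control library. Among them ZNF282 stood at 0.972 (0.912 to 1.04), ZNF746 (PARIS, a repressor of PGC-1α known in Parkinson disease) at 0.849 (0.757 to 0.952) and ZNF862 at 0.644. The median of chromosome 7 near 0 was thus taken over clusters that lay on either side of 0.

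The cluster at the end of chromosome 12 (7 genes, ZNF605 to ZNF268) had a median of 0.33 with 6 of 7 above 1, and the X cluster from ZNF674 to ZNF630 one of 0.36, with 5 of 5 above 1 although ZNF81 stood at 1.0008. Clusters on chromosomes 3 and 6 and the ZNF789 to ZNF3 cluster on chromosome 7, of 4 genes each, had medians of 0.30, 0.17 and 0.16. The 2 clusters on chromosome 16 had medians of 0.21 (7 genes) and 0.09 (13 genes). On chromosome 10 the cluster from ZNF248 to ZNF37A had 0.28 and the one from ZNF33B to ZNF32, on the other side of the centromere, -0.07. The remaining clusters, on chromosomes 1, 8 and 5, had 0.02, -0.06 and -0.07. Cluster membership as such did not separate KRAB genes, since the 75 inside clusters had a median of 0.14 and the 44 outside 0.16.

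**Figure D4:**
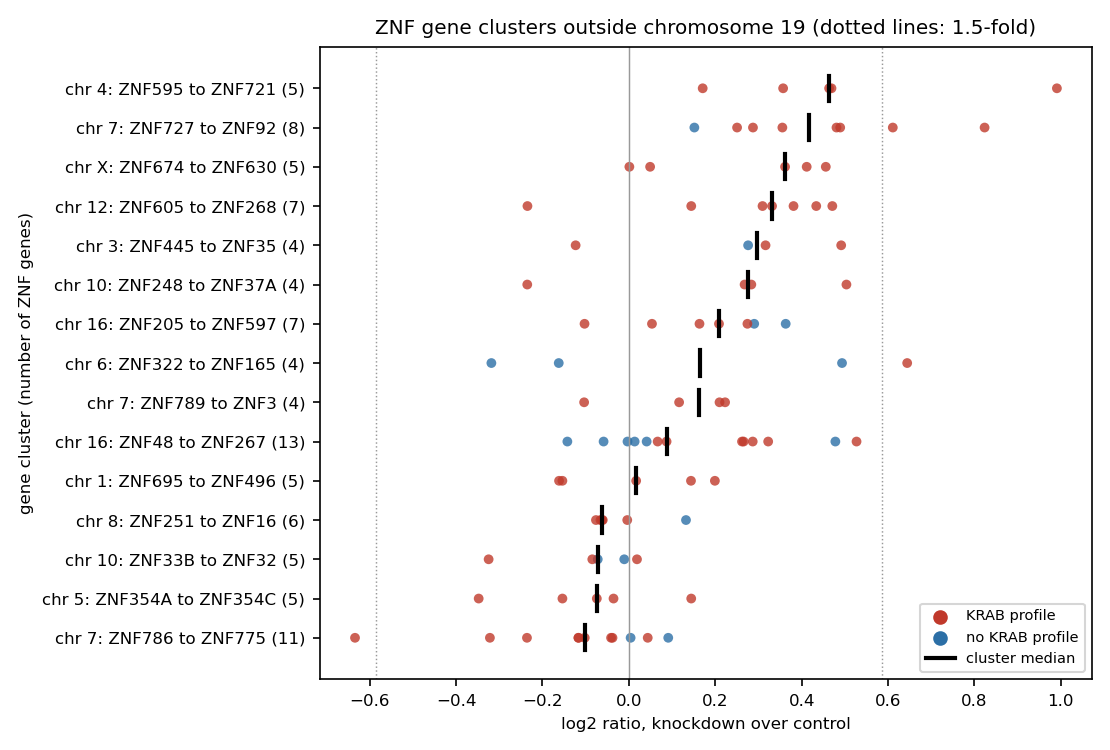
Log2 ratio of knockdown over control (horizontal) of the genes of each of the 15 clusters (rows, ordered by median, with the number of genes in brackets); bars mark the cluster medians. All genes of the chromosome 4 cluster and of the chromosome 7 cluster from ZNF727 to ZNF92 lie to the right of 0, whereas 8 of 11 genes of the cluster from ZNF786 to ZNF775 lie to the left.

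Of 8 pairs of members on opposite strands whose starts or ends lie within 2000 bases of each other, 6 had both genes on the same side of 1, such as ZNF789 at 1.16 and ZNF394 at 1.17, and 2 did not. ZNF891 and ZNF10 on chromosome 12 start 353 bases apart on opposite strands, and ZNF891, which overlaps ZNF140 on the opposite strand, stood at 1.35 (1.20 to 1.52) while ZNF10 stood at 0.850 (0.680 to 1.06). On chromosome 6, ZNF184 and ZNF391 end 98 bases apart, tail to tail, and ZNF184 stood at 1.56 while ZNF391, which overlaps the pseudogene ZNF204P on the opposite strand, stood at 0.802 (0.693 to 0.928). ZNF425 and ZNF398, whose starts are 84 bases apart on chromosome 7, stood at 0.800 (0.591 to 1.08) and 0.932 (0.821 to 1.06). Without a stated strand setting, reads that run past the end of one gene into its neighbour cannot be assigned with certainty.

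Promoters were annotated for 195 of the 234 genes. The window held a median of 24 CpG in the members and 26 in all protein-coding genes, with 22 in KRAB genes and 28 in the others. The 61 KRAB genes with at most 24 CpG had a median log2 ratio of 0.23, 49 of 61 above 1, and the 41 with more had 0.05, 24 of 41 above 1. Without KRAB, the 38 genes with at most 24 CpG and the 55 with more had medians of 0.00 and -0.01, and all protein-coding genes on either side of 24 had 0.00 and -0.02. Of the 4 classes of members the median was highest for KRAB genes with CpG-poor promoters; Spearman's rho of the log2 ratio with CpG number over the 195 was -0.294, and the cluster genes among them share promoter sequence.

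The 2 words capitalised in the promoters above were then counted in all windows. The CTTCCGG or CCGGAAG word was found in 36.4% of the 195 members' promoters and in 19.6% of 10344 protein-coding promoters, and CCAAT on either strand in 44.6% of the members' and 36.7% of all. Members with CCAAT had a median of 0.14 and those without it 0.00. CCAAT was found in 52.0% of the promoters of KRAB members and 36.6% of the others', so this split overlaps the KRAB split. At least 1.5-fold higher were 3 of 87 members with CCAAT (3.45%) and 5 of 108 without it (4.63%), against 1.52% of all protein-coding genes. Members with the ETS word had a median of 0.04 and those without it 0.06. Holding the ETS word, with or without CCAAT, thus did not go with a higher median. Words for NRF1, YY1, CRE, ZNF143, SP1 and the TATA box were searched as well. Medians of members holding one of these ran from -0.17 for CRE (8 members) to 0.33 for NRF1 (6 members). At least 2 CCAAT and 1 ETS word, the arrangement of the 6 promoters shown, occurred in 14 members (7.18%) and in 2.40% of all promoters. These 14 had a median of 0.43, 13 of 14 above 1, and the other 181 members 0.04, 104 of 181 above 1. KRAB genes make up 13 of the 14, and these 13 had a median of 0.46, against 0.14 for the 89 KRAB genes outside the class. All 13 have 8 to 17 CpG, so they lie among the 61 KRAB genes with at most 24 CpG, whose median was 0.23. The 89 include the 41 KRAB genes with more CpG, whose median was 0.05. The word class and the CpG class of KRAB genes are therefore not separate features. The class was chosen after the values and sequences of its first members were seen, so these figures describe it and test nothing.

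The 6 genes shown had the highest ratios of the class. Without them, the other 8 of the class had a median of 0.24 with 7 of 8 above 1. Leaving out chromosome 7, the other 9 had 0.27 with 8 of 9 above 1. These 9 still include ZNF141 and ZNF267. After the 6 shown, ZNF595 stood at 1.38 (1.15 to 1.66), ZNF195 at 1.32 (1.09 to 1.60) and ZNF736 at 1.22 (1.06 to 1.41). ZNF785, ZNF597 and ZNF143 stood at 1.20, 1.16 and 1.102, ZNF519 at 1.0025 and ZNF670 at 0.894, each with an interval that includes 1. On chromosome 19 the same class held 21 of 206 ZNF promoters, with a median of 0.45 and 18 of 21 above 1, against 0.08 for the rest. None of these figures tests the class, since ZNF genes were picked for leaning higher and many are related by duplication. In 213 protein-coding genes that are not ZNF genes, the class had a median of 0.00 with 110 of 213 above 1.

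**Figure D5:**
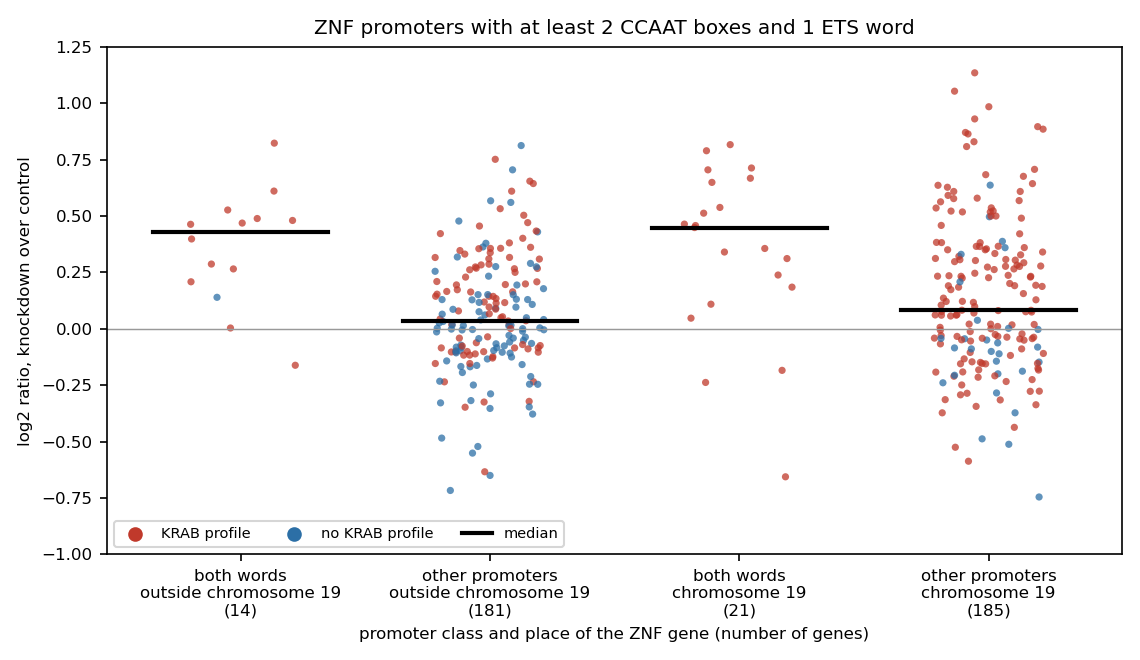
Log2 ratio of knockdown over control (vertical) of ZNF genes by promoter class and place (horizontal, number of genes in brackets); bars mark medians. The 14 genes outside chromosome 19 with at least 2 CCAAT and 1 ETS word have a median of 0.43 and the 181 others 0.04; on chromosome 19 the medians are 0.45 and 0.08.

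A few members have roles known from work outside the KRAB family. Of 6 sequence-specific regulators, 5 had a ratio above 1, where 47.3% of all protein-coding genes did, and the median log2 ratio was 0.13. ZNF281, a factor of pluripotency and of the epithelial to mesenchymal transition, had 1425 counts in the knockdown library and 1033 in the control library, a ratio of 1.30 (1.20 to 1.41). ZNF76 and ZNF143, related activators of small nuclear RNA genes, stood at 1.27 (1.17 to 1.37) and 1.102 (0.977 to 1.24). ZNF148 stood at 1.09 (1.01 to 1.18), ZNF410, the activator of CHD4, at 1.02 and ZNF24 at 0.991, the last 2 with intervals that include 1. None of the 6 passed 1.5-fold, where 1.52% of all protein-coding genes were at least 1.5-fold higher and 2.19% lower. Nothing is read from counts over so few genes.

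The 10 members that work with chromatin complexes had a median of 0.00, with 5 of 10 above 1, near the 47.3% of all protein-coding genes. ZNF827, which recruits NuRD to telomeres, was the highest at 1.15 (1.01 to 1.32), and ZNF516, a partner of CtBP and CoREST, the lowest at 0.787 (0.686 to 0.901). ZNF217, also a CoREST partner, had 2387 counts in the knockdown library and 2250 in the control library, a ratio of 1.0004 (0.944 to 1.06). ZNF518A and ZNF592 stood at 1.09 and 1.07, ZNF644 at 1.03, ZNF335 at 0.997, ZNF532 at 0.970, ZNF687 at 0.936 and ZNF518B at 0.896. The interval of ZNF518B ended at 0.996, and those of the other 6 include 1.

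The 10 members with roles in RNA, the ribosome or the spindle had a median of 0.07, with 6 of 10 above 1, against 47.3% of all protein-coding genes. They include the 3 members with the highest mean TPM. ZNF593 and ZNF622 both act in maturation of the large ribosomal subunit, and they lay on opposite sides of 1. ZNF593 had 660 counts (112 TPM) in the knockdown library and 795 counts (140 TPM) in the control library, a ratio of 0.783 (0.705 to 0.869). ZNF622 had 1862 counts (118 TPM) in the knockdown library and 1408 counts (92.8 TPM) in the control library, a ratio of 1.247 (1.16 to 1.34). ZNF598, the ubiquitin ligase of collided ribosomes, had 91.3 TPM in the knockdown library and 97.9 TPM in the control library (ratio 0.917, 0.871 to 0.966). ZNF106 and ZNF638, both RNA-binding, stood at 1.09 and 1.08 with intervals above 1. ZNF207, ZNF326, ZNF346, ZNF385A and ZNF830 ranged from 0.965 to 1.05 with intervals that include 1.

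Of 8 developmental regulators listed, 4 reached the summed count. ZNF703 and ZNF503, related corepressors of the NET family, of which ZNF703 is amplified in luminal breast cancer, had 49 and 55 counts in the knockdown library and 68 and 76 in the control library. Their ratios were 0.680 (0.461 to 0.996) and 0.682 (0.473 to 0.978), and ZNF503 overlaps antisense genes on the opposite strand. ZNF462 stood at 1.15 (1.07 to 1.23), and ZNF804A, a schizophrenia risk gene, at 1.06 (0.830 to 1.36). The other 4 were at or near 0: ZNF423 had 0 counts in both libraries, ZNF521 had 1 in the knockdown library and 0 in the control library, ZNF750 had 2 and 1, and ZNF365 had 12 in each.

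Levels of the members were low. The median over the 234 of the mean TPM of both libraries was 7.63, against 20.6 over all protein-coding genes, and the range was 0.229 to 126. KRAB genes had a median of 5.36 TPM and the others 11.1. The 5 highest by mean TPM were ZNF593 (126), ZNF622 (105), ZNF598 (94.6), ZNF706 (87.4) and ZNF664 (84.3), and no KRAB domain was found in any of the 5. ZNF706, a protein of 76 residues with 1 finger, had 3511 counts in the knockdown library and 3159 in the control library, a ratio of 1.05 (0.9986 to 1.1000).

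The proteins through which KRAB zinc fingers act were set beside the members as a list of 21 genes. Its median log2 ratio was 0.06, with 14 of 21 above 1 (66.7%, against 47.3% of all protein-coding genes). None passed 1.5-fold, where 1.52% of all were higher and 2.19% lower. Intervals lay above 1 for 9 and below 1 for 5, against 21.4% and 22.7% of all. The list is well counted, with medians of 3248 counts in the knockdown and 2876 in the control library. Of 5716 protein-coding genes with at least 2000 summed counts, 1771 had intervals above 1 and 1532 below. Nothing is read from these counts. TRIM28 itself had 8422 counts in the knockdown library and 8305 in the control library, a ratio of 0.956 (0.928 to 0.986), and SETDB1 stood at 0.991 (0.911 to 1.08). HDAC1 was the highest, with 4330 counts in the knockdown library and 2936 in the control library, a ratio of 1.39 (1.33 to 1.46). TASOR, a HUSH subunit, and the HP1 gene CBX1 stood at 1.15 (1.08 to 1.22) and 1.13 (1.08 to 1.17). The DNA methyltransferase DNMT3B was the lowest at 0.864 (0.751 to 0.995).

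Words of 7 bases in 3′ UTRs that had been found earlier to differ between the lower or higher genes and the rest of these data were found in a few members. Each of the 2 word sets was present in 7 of the 232 members with a 3′ UTR (3.02%), against 2.71% and 3.10% of all protein-coding genes. The members also overlap other genes often: 77 of 234 overlap a gene on the opposite strand, and these had a median log2 ratio of 0.06, as against 0.05 in the 157 without such overlap.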

How the data were processed

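Poly(A)-selected RNA of 2 H1299 libraries was sequenced as paired-end reads, per the labels' protocols. Per the submitters' processing notes, HISAT2 aligned the reads to hg38 and HTSeq counted them; the sources used here state neither versions, annotation nor strand setting. The authors deposited unnormalized counts for each gene, per the file headers. The authors also deposited TPM values per gene, which equal the counts divided by the listed length and scaled to a sum of 1000000.

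Counts were scaled with trimmed mean of M-values factors (edgeR 4.0.16, R 4.3.3), 1.00 for the knockdown and 0.997 for the control library. The log2 ratio is that of knockdown over control counts per 1000000 (CPM), with no pseudocount. Each interval is the exact conditional Clopper-Pearson 95% interval of a ratio of 2 Poisson counts; reads carry no molecular identifiers here, so intervals cover counting error only. As each group has 1 library, no p-values were computed and genes were called by size, at 1.5-fold. The calculation of ratios and intervals was tested on simulated Poisson counts. These hold no variation between libraries, so that test covers counting error only. Genes overlapping or nearly identical to others may have misassigned counts.

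KRAB domains were searched with a profile of 245 aligned windows of 42 residues (pyhmmer 0.12.3, E-value 0.001) in translated GENCODE release 29 coding sequences of 1973 ZNF isoforms. Fingers and SCAN domains were found by pattern. RefSeq promoters (GRCh38.p14) were matched by symbol for 195 of 234 genes. Scripts ran in Python 3.11.15, using biopython 1.88, scipy 1.17.1, numpy 2.4.6, matplotlib 3.10.9 and pandas 2.3.3.

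The members and lists were chosen with earlier results of these data known. Named by rule were members past 1.5-fold with an interval that excludes 1, the highest and lowest member of each chromosome with at least 5 members (summed count at least 200), the 5 members with the highest mean TPM, the role lists, 3 genes on each side of the count minimum, PHF12, the check genes and the KRAB corepressor list. One check gene is not reported here. KRAB, finger, cluster, gene pair and promoter classes, and the genes named for them, were chosen after the values were seen.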

Additional observations from a re-analysis of the deposited data

How the results depend on the processing

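Across 35 alternatives and 498 values, 484 stayed within the tolerance used and 14 moved. That tolerance, for a median the 95% order-statistic interval over its genes, is wide for chromosomes with few genes. Medians of chromosomes 3, 4, 12, 16 and 17 fell by more than 1.5 times under an alternative named above. Under at least 1 alternative, the median of chromosome 15 went from 0.0565 to 0.0276 and that of chromosome 8 from 0.0084 to 0.0055. Those of chromosomes 1 and 5 went from -0.063 and -0.049 to -0.034 and -0.005. Among values close to 0, the medians of chromosomes 6, 7, 18, 20 and X and of genes without KRAB changed sign under at least 1 alternative. The median log2 ratio of the 234 genes stayed between 0.04 and 0.08, that of KRAB genes between 0.14 and 0.18, and that of genes without KRAB between -0.01 and 0.03. The median of all protein-coding genes was -0.01 with the scaling used, 0.00 with total counts and 0.01 with DESeq2 1.42.0 size factors. The log2 ratio of summed counts was 0.063, and was 0.0816 with DESeq2 size factors, 0.0466 without chromosome 12 and 0.0389 without members that overlap a gene on either strand. Of 9 genes at least 1.5-fold higher, 4 were left without members that overlap a gene on either strand, 0 passed a fold of 2 and 41 passed a smaller fold (a log2 ratio of 0.32). Of 3 genes at least 1.5-fold lower, 1 was left with a pseudocount of 0.5 CPM, 0 with a pseudocount of 1 CPM, 0 with a summed count of at least 200, 0 at a fold of 2 and 1 without chromosome 7, while 14 passed the smaller fold. Ratios above 1 numbered 93 of 157 without members that overlap a gene on the opposite strand and 82 of 141 without overlap on either strand, where fewer genes were counted. The cause of the other moves was not tested. Alternatives that use either-strand overlap, translated coding sequences, 3′ UTR words or a GC and length trend were chosen after seeing the data, and a planned restriction to C2H2 patterns in RefSeq proteins was not run. No paired analysis was possible because each group has 1 library and no test was made; for the same reason no library could be left out. Depth limits the genes with fewest counts, such as the 29 members with 50 to under 200 summed counts.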
